A study of Mus musculus with 37 samples.

Results

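MicroRNAs are numbered in the order in which they were annotated, and the microRNAs examined here are those numbered 1000 and above that were detected in mouse blood. They were chosen from the deposited count table by name and by detection. A microRNA was a member when it had a number of 1000 or more and more than 1 read in at least 10 of the 37 libraries, and miR-3969 was left out. Of the 1066 microRNAs with such numbers, among 1915 in the table, 116 were members. A further 581 had no read in any library, 222 had reads but never more than 1 in a library, and 146 were detected in 1 to 9 libraries. Detection over all libraries chose the members, so detection and level are given as descriptions. The rule itself used no comparison of ages. It pooled the ages, so a scarce microRNA that was high at 1 age could enter through that age. The same holds for the detection filter of the test described below. miR-3969 met the rule with 37 libraries and was left out by name. It had a large age difference in the test described below (adjusted p = 1.22e-18 with edgeR).

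The libraries were made from the small RNA of whole blood, drawn from the retro-orbital sinus of C57BL/6 mice. According to the study's methods the mice were male, housed singly, and trained in the water maze. Blood at 12 months was taken before any behavioural test, and blood at the later ages 24 h after the last probe test, so age, training and time since training cannot be told apart. The 12-month group held 9 libraries and the 13.5-month group 12, the 15-month group 5 and the 16.5-month group 11. No genetic change or drug distinguished the ages. The study followed mice over time with repeated bleeding, so libraries of different ages can come from the same mouse. The tests took all 37 libraries as independent, because the labels do not tie libraries to mice. In whole blood, fewer cells of a type and less RNA per cell cannot be told apart.

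MicroRNAs are short RNAs that guide Argonaute proteins to messenger RNAs, mainly through the seed, bases 2 to 8 of the mature strand. Drosha and then Dicer cut them from a hairpin precursor whose 5p and 3p arms can each give a mature strand, and usually 1 arm is kept. Many microRNAs with high numbers are known from deep sequencing of rodents only and are supported by few reads. Some of them are mirtrons, whose hairpin is a whole spliced intron and needs no cut by Drosha, and others overlap genes of small nucleolar, Cajal body or transfer RNAs.

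Mature sequences were found in RefSeq (GRCm38.p6) for 100 of the 116 members. The other 16, among them miR-5099, miR-1839-3p and miR-3074-1-3p, have no sequence or genomic context here, though their levels or arms are compared below. Sequences are shown 5′ to 3′ with the seed in capitals for members on which the results turn and for which one was found. The first 3 were the most abundant members.

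miR-1198-5p: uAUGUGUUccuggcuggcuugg
miR-8114: uCACCCAUcuccucuccgccu
miR-1839-5p: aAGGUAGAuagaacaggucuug

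miR-1198-5p lay at chrX:7807142-7807163 (plus strand) in an intron of Gripap1. miR-8114 lay at chr1:153899989-153900009 in an untranslated exon of Glul, the gene of glutamine synthetase. miR-1839-5p lay at chr7:81529919-81529940, inside a gene that is also annotated as a small Cajal body RNA. The next pair is shown for the letters CGAAUCC, which on the given strand occurred in 2 of the 1623 mouse microRNAs with a sequence (0.123%), both of them members.

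miR-3968: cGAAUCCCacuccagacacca
miR-5100: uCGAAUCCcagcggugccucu

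Such letters are common in the T arm of transfer RNAs, and mature transfer RNAs end in CCA. miR-3968 lay at chr11:115447969-115447989 with no gene on its own strand, and miR-5100 at chr11:60728698-60728718 in an intron of Mief2. miR-3968, miR-3060-3p and miR-6986-5p ended in CCA, 3 of the 100 members with a sequence, against 1.36% of all 1623. The following pair shows how 2 members shared reads.

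miR-1843a-5p: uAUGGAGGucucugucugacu
miR-1843b-5p: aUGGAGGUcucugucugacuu

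These strands start 1 base apart within the same stretch, at chr12:80391654-80391674 and chr1:159340362-159340382. Their counts were equal in 32 of the 37 libraries and differed by at most 2 reads, so they were 1 measurement, and the reads could not be assigned to either. The last 4 carried age differences, and the third of them, miR-7019-3p, ends in cag like the end of an intron.

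miR-1970: uGUGUCACuggggauaggcuuug
miR-1198-3p: aAGCUAGCcucuaacucauggc
miR-7019-3p: uCACCUUGgccgccucucugcag
miR-3061-3p: cUACCUUUgauaguccacugcc

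miR-1970 lay at chrX:135786174-135786196 with no gene on its strand, and miR-1198-3p at chrX:7807180-7807201 on the other arm of the miR-1198 hairpin. miR-7019-3p lay at chr4:138316132-138316154 at the end of an intron of Pink1, which some transcripts keep as untranslated exon. miR-3061-3p lay at chr11:52126804-52126825 in an untranslated exon of Ppp2ca, which encodes a catalytic subunit of protein phosphatase 2A.

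The members held a small share of the reads. miR-486, an abundant erythrocyte microRNA, took most of every library, and each library held 140292 to 1131713 counts that came from neither miR-486a-5p nor miR-486b-5p. The members made up 0.299% to 0.672% of these counts, with a median of 0.487%. Each library detected 51 to 113 members, with a median of 86. After every library was thinned to 140292 of these counts, the medians were 53.2, 46.9, 52.4 and 51.7 members, in order of age, and the ranges of all 4 ages overlapped. The markers fixed for erythrocytes, platelets, myeloid cells and lymphocytes were detected in at least 19 libraries, and 0 markers were at 0 in every library. The summed level of the myeloid markers had medians of 2798, 1947, 2825 and 2740 CPM (counts per 1000000 counts after scaling) in order of age, while lymphocyte markers had medians of 242, 433, 235 and 373. The platelet list had medians of 173, 121, 212 and 163 CPM and the 2 liver markers, of which 1 was detected in at least 19 libraries, 687, 397, 807 and 473. The erythrocyte list had medians of 378200, 472100, 611600 and 447100 CPM. The part of these cells in the differences between ages was not tested.

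Few of the members were abundant. The 116 members had 90033 reads in all, of which miR-1198-5p alone held 25.4% and the 10 most abundant held 67.5%. Over members, the median of the mean reads per library was 4.92. A mean of at least 100 reads was reached by 5 members and a mean of at least 20 by 19. There were 19 members detected in all 37 libraries, 42 in 30 to 36, 30 in 19 to 29 and 25 in 10 to 18. Detection was spread over the ages: 113 members were detected at all 4, and no member had more than 52.9% of its detecting libraries at a single age.

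**Figure D1:**
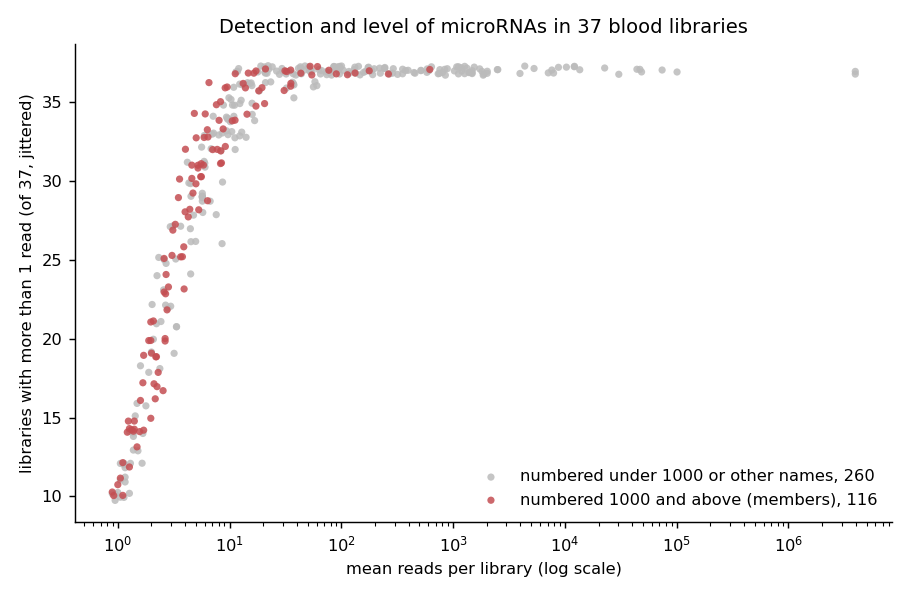
Each point is a microRNA detected in at least 10 of 37 libraries, placed by its mean reads per library (log scale) and by the number of libraries with more than 1 read; the 116 members are red and the other 260, which include miR-3969, are gray. The members lie along the same rise as the others, mostly at its low end, and 5 of them pass 100 reads.

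The rule cut through a dense range of detection. Just inside it were miR-6979-3p, miR-7647-5p and miR-7667-3p with 10 libraries and miR-7052-3p and miR-7219-3p with 11, at means of 0.892 to 1.11 reads. Among those just outside it, the first 6 by name were miR-1966-3p, miR-3102-3p, miR-6418-3p and miR-7073-5p with 9 libraries, and miR-5627-3p and miR-6928-3p with 8, at means of 0.676 to 0.973 reads. The other arm of miR-7667 fell outside with 9 libraries. The mean reads of the members inside and of the microRNAs outside overlapped.

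A list of 13 numbers shared with human microRNAs was taken from background knowledge, and other shared numbers were not looked for. Of the 26 microRNAs with these 13 numbers, 5 were members: miR-1249-3p, miR-1306-5p, miR-1306-3p, miR-3074-1-3p and miR-3074-5p. miR-1306 lies in the coding sequence of Dgcr8, which encodes the RNA-binding partner of Drosha.

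Next, the genomic context of the members was compared with that of other microRNAs, as a description. Of the 100 members with a sequence, 65 lay in an intron, 12 in an exon, 10 in an exon or an intron depending on the transcript, and 13 had no gene on their strand. An end at the 3′ end of an intron, within 2 bases, was found for 18% of the members, against 1.85% of the 216 microRNAs numbered under 1000 and detected in at least 10 libraries. Among the microRNAs numbered 1000 or more that were not members and had a sequence, the share was 21.5%. All 15 members ending in cag lay at such an end, which is the last part of an intron before its splice site. They included miR-3082-3p in Stub1, miR-3103-3p, miR-3076-3p in Tkt, miR-7068-3p in Cherp, miR-1982-3p in Oaz1 and miR-6899-3p in Klf7. The highest of the members at an intron end was miR-1981-3p, with a mean of 77.2 reads. Its opposite arm, miR-1981-5p, started at the other end of the same intron of Marc2, so both ends of this hairpin coincide with splice sites.

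Overlap with a gene annotated as another type of small RNA was also more frequent by count. It was found for 9 of the 100 members (9%), against 0.926% of the detected microRNAs numbered under 1000 and 1.33% of the undetected or rarely detected ones numbered 1000 or more. These 9 were miR-1839-5p, both arms of miR-1843a and miR-1843b, miR-3068-3p, miR-3535, miR-3084-3p and miR-1983. For miR-1839-5p, miR-3068-3p and miR-3535 the small RNA gene had the same symbol as the gene of the microRNA itself. The arms of miR-1843a and miR-1843b were counted singly, although their 5p arms were 1 measurement. miR-1843a and miR-1843b overlapped Scarna3b and Scarna3a, miR-3535 a small nucleolar RNA gene in an intron of Ncl, miR-3084-3p the gene Snora19 and a copy, and miR-1983 a gene of a transfer RNA. The sequence of miR-3470b also occurred in transcripts of 546 other genes, so reads of this sequence could not be assigned to it alone. The median GC content was 54.5% in the members and 47.8% in the detected microRNAs numbered under 1000. The members had 99 distinct seeds, and 7 members shared a seed with a microRNA numbered under 1000. These were miR-5129-3p with miR-455-5p, miR-6240 with miR-330-3p, miR-7670-3p with miR-204-5p and miR-211-5p, miR-3473d with miR-674-5p, miR-1983 with miR-412-3p, and miR-1943-5p and miR-6967-5p with miR-149-3p.

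To ask which members differed between the ages, the 323 microRNAs with more than 1 read in at least 19 libraries were fitted together with edgeR, and 91 of them were members. In the quasi-likelihood F-test of any age difference, 104 of 323 microRNAs (32.2%) had an adjusted p under 0.05. Of the 91 tested members 17 were called (18.7%), against 37.5% of the 232 other microRNAs, which included miR-3969. The shares are also given by depth. At a mean of at least 100 reads, 2 of 5 members and 48 of 88 others (54.5%) were called. Between 20 and 100 reads 4 of 14 members (28.6%) and 44.6% of the others were called, between 5 and 20 reads 17.9% and 18.6%, and under 5 reads 12.1% and 10.3%. Of the 17 called members, 9 had their highest mean level at 13.5 months, and 3, 2 and 3 had it at 12, 15 and 16.5 months. Among the 87 called microRNAs that were not members 32 had it at 13.5 months, and among all 323 tested 101 did.

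Each age was then compared with 12 months. These comparisons share the 12-month libraries. At 13.5 months 13 of 91 members were called, 9 higher and 4 lower, where 70 of all 323 microRNAs (21.7%) were called. The higher ones were 9.91% and the lower ones 11.8% of all tested. The direction of the calls depended on scaling. The split was 4 higher and 5 lower with scaling factors from microRNAs over 100 reads, 2 and 4 with the total count only, 3 and 5 with the total outside miR-486, and 6 and 7 with 1 factor of unwanted variation. Of all 323 tested, 74, 30, 62 and 86 were called under these settings in order. Each of the 13 members nevertheless had the direction given here under every alternative that tested it. The median log2 fold change was 0.10 over the members and -0.04 over all tested.

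At 15 months 0 members were called with edgeR, 7 had an unadjusted p under 0.05, and DESeq2 called 0. Among all tested 0.31% were called with edgeR, and 6 of 323 with DESeq2. With 5 libraries this comparison had the smallest group. At 16.5 months 6 members were called, 5 higher and 1 lower, where 14.2% of all tested were called, 4.64% higher and 9.6% lower. With the total count only, the split at 16.5 months was 0 higher and 3 lower. With the total outside miR-486 it was 3 and 3, with factors from microRNAs over 100 reads 4 and 2, and without a filter 1 and 1. Of all tested, 34, 44 and 50 of 323 and 21 of 960 were called under these settings in order. The median log2 fold change at 16.5 months was 0.13 over the members and -0.03 over all tested.

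From 13.5 to 15 months 3 members were called, 2 higher and 1 lower, where 9.91% of all tested were called, 3.41% higher and 6.5% lower. With the total count only, the split was 0 higher and 4 lower, where 18 of all 323 tested were called. From 15 to 16.5 months 0 members were called with edgeR where 0.31% of all tested were, and 7 had an unadjusted p under 0.05. DESeq2 called 1 member there, and 10 of all 323 tested.

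**Figure D2:**
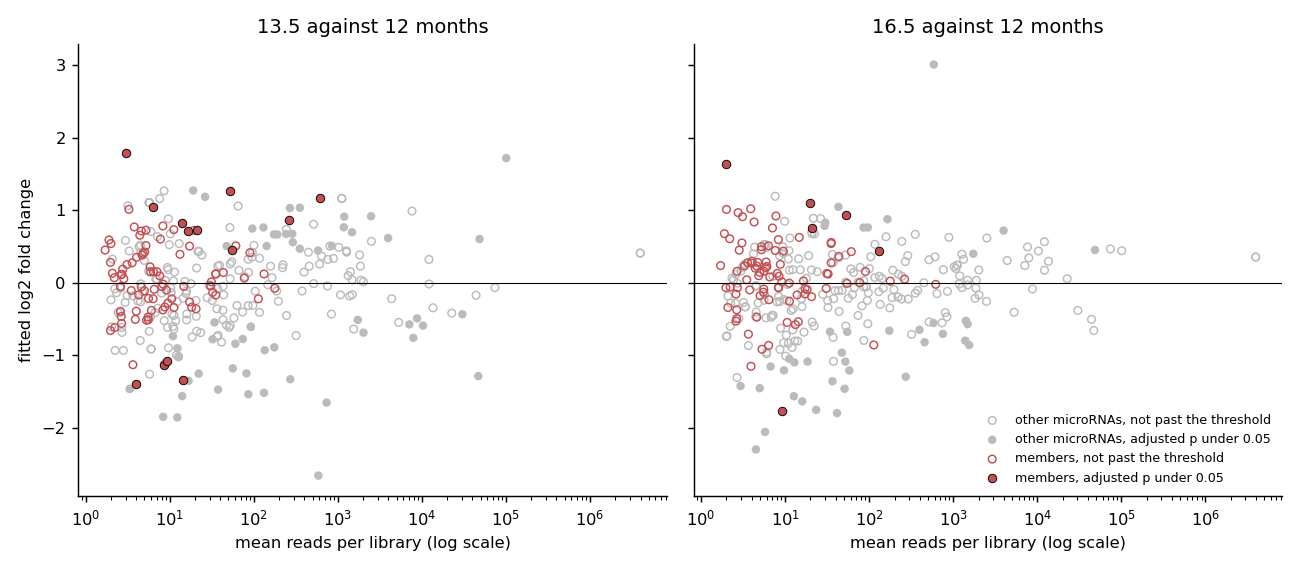
The fitted log2 fold change of 323 microRNAs at 13.5 months (left) and 16.5 months (right) against 12 months is plotted over the mean reads per library (log scale), with members in red, others in gray, and filled points past an adjusted p of 0.05. The members lie mostly under 100 reads; over all depths, 13 are past the threshold on the left and 6 on the right.

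miR-1198-5p, the most abundant member, had its highest level at 13.5 months. Its level ran from 41.1 CPM through a median of 50.0 to 74.2 at 12 months, and from 51.5 through 98.2 to 242 at 13.5 months. At 15 months the 5 libraries had 50.2, 47.7, 61.5, 52.5 and 37.7 CPM, and at 16.5 months the level ran from 36.2 through 51.5 to 66.1. The levels at 13.5 months overlapped those at 12 months, but 10 of 12 libraries lay above the highest library at 12 months, and all 12 lay above its median. The mean at 12 months was 53.3 ± 10.7 CPM (SD, n = 9). At 13.5 months it was 121 ± 56.9 CPM (SD, n = 12), a log2 fold change of 1.18 ± 0.20 (SE, adjusted p = 4.68e-05 with edgeR). From 13.5 to 15 months it fell by 1.27 ± 0.25 on the log2 scale (adjusted p = 0.000662 with edgeR). At 16.5 months the log2 difference from 12 months was -0.02 ± 0.20 (adjusted p = 0.964 with edgeR). The call of an age difference (adjusted p = 8.35e-07 with edgeR) held under all 11 alternatives and with each of the 37 libraries left out. Replicate 1 at 13.5 months was its highest library, and the mean at that age was 110 ± 44.2 CPM (n = 11) without it.

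miR-8114, from the Glul exon, had a like course with more overlap. Its level ran from 7.27 CPM through 23.9 to 41.8 at 12 months, from 16.7 through 41.7 to 110 at 13.5 months, and from 17.9 through 24.8 to 41.3 at 16.5 months. At 15 months the libraries had 39.5, 20.8, 44.2, 26.3 and 22.7 CPM. Of the 12 libraries at 13.5 months, 6 lay above all those at 12 months, and none lay below them. The log2 fold change at 13.5 months was 0.87 ± 0.26 (adjusted p = 0.0146 with edgeR). It was past the threshold under 9 of 11 alternatives. The highest library was again replicate 1 at 13.5 months, and without that library the mean at 13.5 months was 39.3 ± 12.4 CPM (n = 11), against 45.2 ± 23.6 with it (n = 12).

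miR-5099 was lowest at 12 months. It had 1.21 to 5.58 CPM at 12 months (median 2.38), 4.62 to 18.7 at 13.5 months (median 7.14) and 4.24 to 11.8 at 16.5 months (median 6.13). The 15-month libraries had 7.96, 5.39, 13.8, 2.94 and 2.73 CPM. All 12 libraries at 13.5 months and all 11 at 16.5 months lay above the 12-month median, and 9 and 6 of them above the highest 12-month library. The log2 fold change was 1.27 ± 0.30 at 13.5 months (adjusted p = 0.00212 with edgeR) and 0.94 ± 0.30 at 16.5 months (adjusted p = 0.0325 with edgeR). The change at 16.5 months lost the threshold without replicate 2 at that age (adjusted p = 0.0730) and in 5 other omissions of 1 library.

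miR-3968, whose sequence ends in CCA, varied more among libraries than between ages. It had 4.85 to 45.7 CPM at 12 months (median 15.3), 5.96 to 45.3 at 13.5 months (median 12.3) and 4.85 to 15.5 at 16.5 months (median 8.49). At 15 months the libraries had 26.3, 9.37, 29.1, 14.6 and 7.98 CPM. The ages overlapped throughout, and 1 of the 11 libraries at 16.5 months lay above the 12-month median. The log2 difference was -0.85 ± 0.33 at 16.5 months (adjusted p = 0.0820 with edgeR), and the test of any age difference gave an adjusted p of 0.128.

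**Figure D3:**
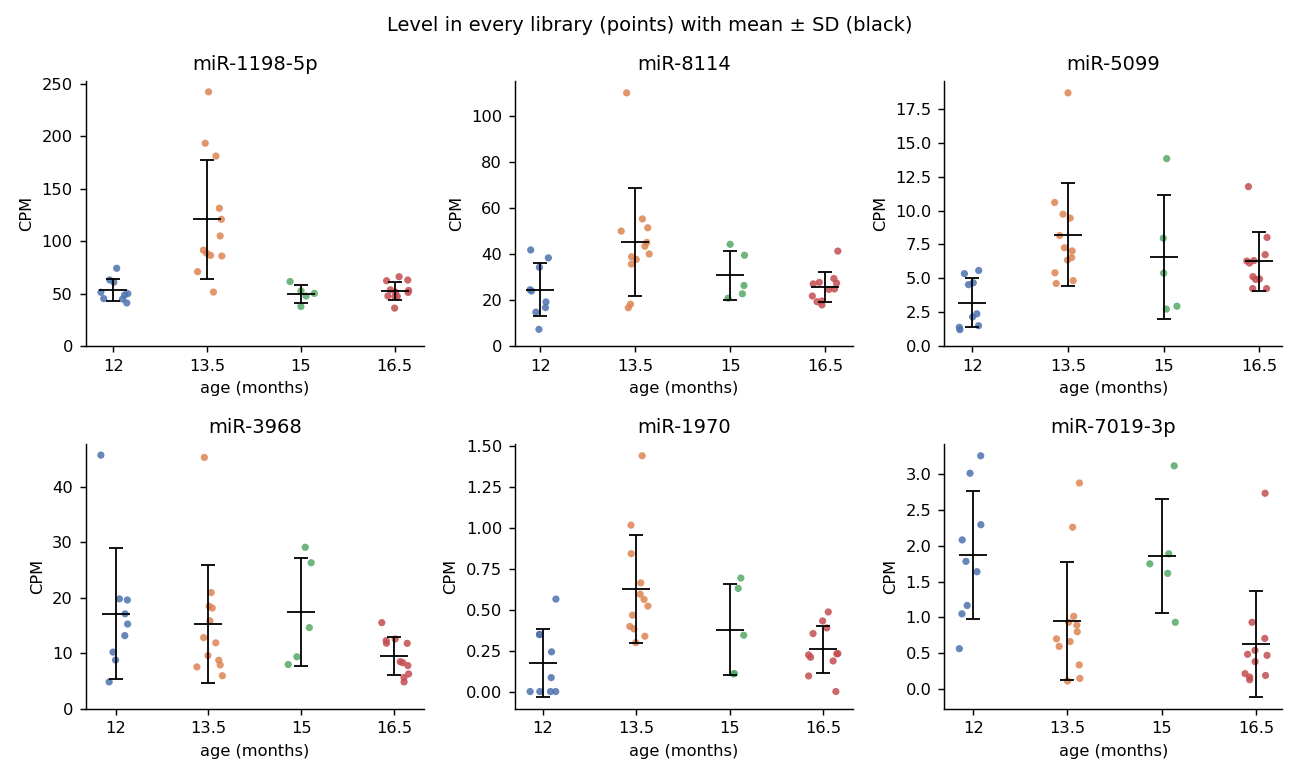
The level in CPM of 6 members is plotted in every library (points) over the 4 ages in months, with the mean and SD in black. For miR-1198-5p 10 of 12 libraries at 13.5 months lie above all 12-month libraries, and for miR-3968 the 4 ages overlap.

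Among the other abundant members, miR-1947-5p, from an intron of Lmln, had 3.87 to 6.28 CPM at 12 months (median 5.64), 3.37 to 9.04 at 13.5 months (median 7.38) and 3.24 to 8.84 at 16.5 months (median 5.13). The 15-month libraries had 6.23, 7.0, 5.19, 7.16 and 7.65 CPM. At 13.5 months 9 of 12 libraries lay above and 1 below all 12-month libraries. The log2 fold change was 0.45 ± 0.16 (adjusted p = 0.0396 with edgeR), past the threshold under 3 of 10 alternatives. miR-3074-5p had 8.64 to 17.8 CPM at 12 months (median 13.4), 9.55 to 19.7 at 13.5 months (median 13.4) and 14.7 to 23.5 at 16.5 months (median 17.3). At 15 months it had 18.7, 12.5, 10.7, 15.2 and 12.6 CPM. All 11 libraries at 16.5 months lay above the 12-month median, with a log2 fold change of 0.44 ± 0.14 (adjusted p = 0.0343 with edgeR). Its test of any age difference gave an adjusted p of 0.0525, and the contrast lost the threshold without replicate 4 at 12 months (adjusted p = 0.111) and in 4 other omissions. It was past the threshold under 7 of 11 alternatives, and with the total count only the log2 fold change was 0.10 (adjusted p = 0.846).

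The other 4 of the 10 most abundant members were not called. miR-1839-5p had mean levels of 19.2 ± 4.42, 18.1 ± 5.64, 18.02 ± 5.83 and 19.6 ± 2.45 CPM over the 4 ages (SD; n = 9, 12, 5 and 11), with an adjusted p of 0.944 from edgeR. miR-1981-3p, the intron-end arm, had 8.70 ± 4.12, 9.25 ± 3.75, 8.93 ± 2.54 and 8.83 ± 2.15 CPM (adjusted p = 0.995 with edgeR). miR-1964-3p, from an intron of Zfp84, had 9.61 ± 4.48, 12.7 ± 3.84, 11.3 ± 6.13 and 10.6 ± 3.17 CPM (adjusted p = 0.525 with edgeR). miR-1843b-3p had 5.92 ± 4.30, 9.05 ± 8.27, 8.54 ± 4.23 and 8.13 ± 6.44 CPM (adjusted p = 0.805 with edgeR). In these 4 the spread among libraries of 1 age exceeded the differences between the age means.

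The remaining members with the smallest p-values were scarce. miR-7019-3p, the Pink1 intron end, had 0.564 to 3.26 CPM at 12 months (median 1.78), 0.112 to 2.88 at 13.5 months (median 0.750) and 0.129 to 2.73 at 16.5 months (median 0.471). At 15 months it had 3.12, 1.62, 1.89, 0.932 and 1.75 CPM. At 16.5 months 8 of 11 libraries lay below every 12-month library, and the level fell by 1.76 ± 0.43 on the log2 scale (adjusted p = 0.00954 with edgeR). This held under all 10 alternatives that tested it and with each library left out. At 13.5 months it fell by 1.08 ± 0.40 (adjusted p = 0.0497 with edgeR), which was past the threshold in 10 of 37 omissions, and its adjusted p was 0.0967 without replicate 6 at 12 months. Its mean count was 9.16 reads.

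miR-1970 had 0 to 0.564 CPM at 12 months (median 0.0850), 0.298 to 1.44 at 13.5 months (median 0.542) and 0 to 0.486 at 16.5 months (median 0.230). The 15-month libraries had 0.692, 0.108, 0.629, 0.343 and 0.109 CPM. All 12 libraries at 13.5 months lay above the 12-month median and 5 above its highest library. The log2 fold change was 1.79 ± 0.45 (adjusted p = 0.00424 with edgeR), and its call held under all 10 alternatives and every omission. Only 3.05 reads per library lay behind it on average, so the size of this fold depends on few reads. miR-1970 was detected in 3, 11, 3 and 8 libraries in order of age. Its detection at 13.5 months therefore helped it pass the filter of the test, which pooled the ages.

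miR-6960-5p, from an intron of Troap, had 0.969 to 1.86 CPM at 12 months (median 1.26), 0.745 to 5.75 at 13.5 months (median 2.18) and 0.273 to 2.07 at 16.5 months (median 1.24). The 15-month libraries had 1.39, 0.754, 2.36, 1.18 and 1.31 CPM. At 13.5 months 7 libraries lay above and 2 below all 12-month libraries, with a log2 fold change of 0.82 ± 0.29 (adjusted p = 0.0367 with edgeR), past the threshold under 4 of 10 alternatives. miR-2137, from an intron of Zfp185, had 0.116 to 2.08 CPM at 12 months (median 0.727), 0 to 0.608 at 13.5 months (median 0.174) and 0 to 0.820 at 16.5 months (median 0.354). At 15 months it had 0.346, 0.754, 0.157, 0.442 and 0.546 CPM. None of the 12 libraries at 13.5 months lay above the 12-month median, and it fell by 1.40 ± 0.42 on the log2 scale (adjusted p = 0.0146 with edgeR), past the threshold under all 10 alternatives. Its test of any age difference (adjusted p = 0.0356 with edgeR) was past the threshold under 7 of 10 alternatives and in 25 of 37 omissions. miR-2137 had a mean of 3.92 reads and was detected in 8, 5, 3 and 7 libraries over the 4 ages. Its detection at 12 months therefore helped it pass the filter of the test, which pooled the ages.

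Of the other members called in the test of any age difference, chosen for mention after their values were seen, 4 were higher at 13.5 months or later. miR-3061-3p, from the Ppp2ca exon, had mean levels of 1.62, 2.75, 2.81 and 2.77 CPM over the 4 ages, with log2 fold changes of 0.73 ± 0.25 at 13.5 months (adjusted p = 0.0318 with edgeR) and 0.76 ± 0.25 at 16.5 months (adjusted p = 0.0377). Its age difference was past the threshold under 4 of 10 alternatives and in 12 of 37 omissions of 1 library (adjusted p = 0.121 without replicate 8 at 12 months). miR-3058-3p, from an intron of Nudt4, had 1.48, 2.57, 2.08 and 1.51 CPM, and miR-7688-5p 0.488, 1.12, 0.408 and 0.750 CPM. The age difference of miR-3058-3p was past the threshold under 5 of 10 alternatives and in 21 omissions, with an adjusted p of 0.0802 without replicate 7 at 13.5 months. That of miR-7688-5p was past it under 3 of 10 alternatives and in 22 omissions, with an adjusted p of 0.0762 without replicate 5 at 13.5 months. In the same test miR-6899-3p, miR-3068-3p, miR-5100 and miR-1968-5p were past the threshold in 29, 23, 23 and 22 of the 37 omissions. miR-6899-3p, the Klf7 intron end, had 0.143, 0.170, 0.227 and 0.429 CPM, higher at 16.5 months (log2 fold change 1.64 ± 0.55, adjusted p = 0.0386 with edgeR). It had a mean of 1.97 reads and was detected in 20 libraries, 4, 3, 3 and 10 of them in order of age. Detection at 16.5 months therefore helped miR-6899-3p pass the filter of the test, which pooled the ages. miR-3068-3p, whose gene is also annotated as a small nucleolar RNA, was lower at 13.5 months by a log2 fold change of -1.13 ± 0.39 (adjusted p = 0.0362 with edgeR). miR-5100, which shares CGAAUCC with miR-3968, had 2.28, 1.73, 3.41 and 1.99 CPM, and its rise from 13.5 to 15 months (log2 fold change 0.94 ± 0.28, adjusted p = 0.0204 with edgeR) had an adjusted p of 0.144 without replicate 2 at 15 months. miR-7015-3p, at an intron end of Smap2, was higher at 16.5 months (log2 fold change 1.10 ± 0.34, adjusted p = 0.0250 with edgeR), although its test of any age difference gave 0.0646. miR-1968-5p, from an intron of Grtp1, was called in the test of any age difference (adjusted p = 0.0361 with edgeR) and in no single contrast.

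Both arms were members for 14 hairpins: miR-1198, miR-1306, miR-1839, miR-1843a, miR-1843b, miR-1981, miR-3058, miR-3061, miR-3074, miR-3103, miR-5107, miR-5134, miR-6967 and miR-7653. In miR-1198 99.4% of the reads came from the 5p arm, in miR-1306 91.99%, in miR-1839 92.5% and in miR-1843a 94.2%. The 5p share was 79.0% in miR-3074, 7.44% in miR-3058, 20.2% in miR-3061, 28.2% in miR-5134, 29.6% in miR-1981 and 36.5% in miR-1843b. The arms were nearer to balance in miR-3103 (38.4% from 5p), miR-7653 (42.6%), miR-5107 (54.7%) and miR-6967 (60.9%). The 5p reads of miR-1843a and miR-1843b are the shared reads described above, counted for both hairpins, so neither 5p share is a measure of 1 hairpin alone, and this also holds for the arm ratio of miR-1843b. miR-3074-5p is annotated both at Mir3074-1 and at Mir3074-2, while the 3p arm taken here is that of Mir3074-1. Both arms of miR-6967 are annotated at more than 1 place. The shares of miR-3074 and miR-6967, and the arm ratio of miR-3074, are therefore not measures of 1 hairpin alone either.

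The arm shares were compared between ages because the arms of miR-1198 and miR-1839 had different courses, so these tests were chosen after the values had been seen. For the 9 hairpins with both arms detected in at least 19 libraries, the log2 ratio of 5p to 3p reads, with 0.5 added to each, was taken in every library. The ratio of the arms of 1 library does not depend on the scaling between libraries. Where an arm has few reads, it depends partly on the 0.5 added and on depth. Ages were compared with exact permutation tests of the difference in means, two-sided, and p-values were adjusted over the 27 comparisons, of which 7 passed 0.05. The comparisons share libraries, and in all of them the groups overlapped.

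In miR-3061 the balance moved to the 3p arm. The 5p arm gave 35.8% of its reads at 12 months, and 19.1%, 14.8% and 16.1% at the later ages in order. The log2 ratio ran from -3.17 through -0.65 to 0.53 at 12 months, from -3.70 through -1.93 to -1.38 at 13.5 months, from -4.39 through -2.89 to -1.70 at 15 months, and from -5.13 through -2.75 to -1.41 at 16.5 months. The mean ratio was lower by 1.40 at 13.5 months (a difference of -1.40, exact permutation p = 0.00251, adjusted p = 0.0226) and by 2.23 at 16.5 months (a difference of -2.23, exact permutation p = 0.00081, adjusted p = 0.0190). With each library left out, the difference at 16.5 months stayed between -2.52 and -2.02, and the largest exact permutation p was 0.0018. Mean levels of the 5p arm were 0.832, 0.520, 0.319 and 0.354 CPM over the 4 ages, and the 5p arm alone was not called (adjusted p = 0.135 with edgeR). The 5p arm had a mean of 5.30 reads per library and 0 reads in 5 libraries. It was detected in 8, 9, 4 and 7 libraries over the 4 ages, so the ratio was set partly by the 0.5 added and by depth.

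In miR-1839 the 3p arm was lower at 13.5 months while the 5p arm was not called. miR-1839-3p had 0.694 to 4.68 CPM at 12 months (median 1.65), 0 to 2.47 at 13.5 months (median 0.677) and 0.547 to 2.98 at 16.5 months (median 1.30). At 15 months it had 0, 2.26, 1.26, 2.26 and 4.04 CPM. At 13.5 months 6 of 12 libraries lay below all 12-month libraries, and the level fell by 1.34 ± 0.38 on the log2 scale (adjusted p = 0.00987 with edgeR). Without replicate 7 at 12 months this adjusted p was 0.0606. The difference of the log2 arm ratio at 13.5 months was 1.36 (exact permutation p = 0.00141, adjusted p = 0.0190). The 3p arm had a mean of 14.3 reads per library and 0 reads in 3 libraries. It was detected in 9, 10, 4 and 11 libraries over the 4 ages. Where it had few reads, the ratio was set partly by the 0.5 added and by depth.

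In miR-1198 the 5p arm peaked at 13.5 months and the 3p arm had its highest mean at 16.5 months. miR-1198-3p had 0 to 0.972 CPM at 12 months (median 0.347), 0 to 0.521 at 13.5 months (median 0.240) and 0.314 to 2.07 at 16.5 months (median 0.646). At 15 months it had 0, 0.323, 0.787, 0.245 and 0.328 CPM. At 16.5 months 7 of 11 libraries lay above all those at 13.5 months, and 2 above all those at 12 months. The test of any age difference gave an adjusted p of 0.0188 with edgeR, and 0.0597 without replicate 2 at 16.5 months, its 1 loss among 37 omissions. The log2 arm ratio was higher at 13.5 months by 1.43 (exact permutation p = 0.00642, adjusted p = 0.0433), and at 16.5 months it differed from 12 months by -1.06 (exact permutation p = 0.0120, adjusted p = 0.0462). At 15 months it differed from 13.5 months by -1.515 (exact permutation p = 0.0110, adjusted p = 0.0462). The 3p arm had a mean of 3.89 reads per library and 0 reads in 4 libraries, so the ratio of these libraries was set partly by the 0.5 added and by depth. miR-1306 differed between 15 and 13.5 months (1.97, exact permutation p = 0.00905, adjusted p = 0.0462), where its 3p arm had a mean of 3.78 reads per library. For miR-1843b, miR-1981, miR-3074, miR-3103 and miR-7653 the adjusted permutation p of every comparison was 0.3285 or more.

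**Figure D4:**
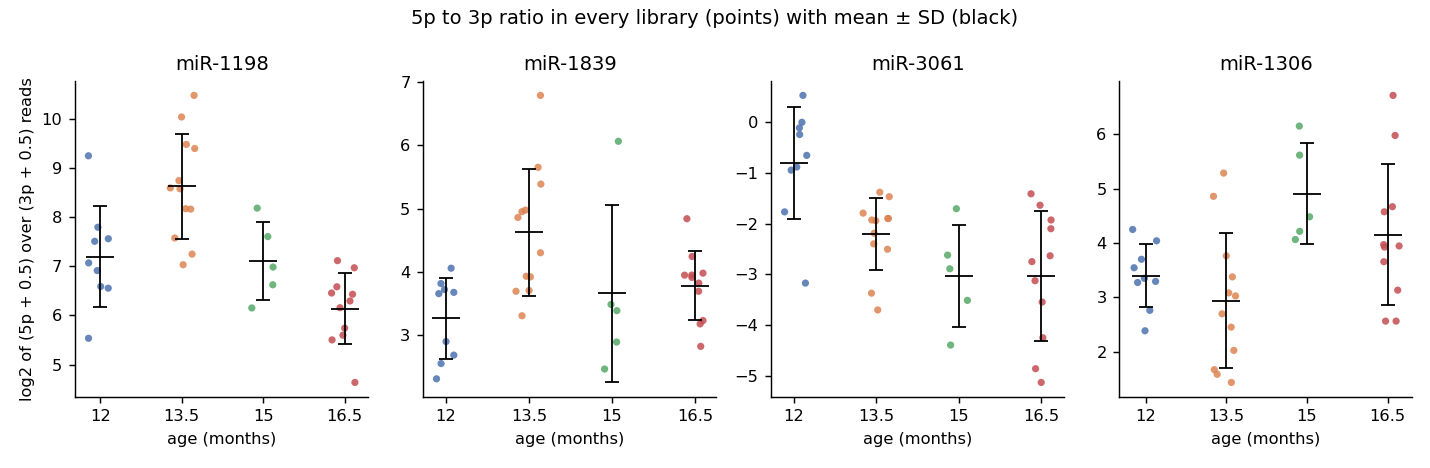
The log2 ratio of 5p to 3p reads (0.5 added to each) is plotted for 4 hairpins in every library (points) by age in months, with the mean and SD in black. miR-3061 has its highest mean ratio at 12 months (-0.80) and lower ones at 13.5 (-2.21), 15 (-3.02) and 16.5 months (-3.03), with overlap between ages. Its 5p arm has a mean of 5.30 reads per library.

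Finally, the abundant members were compared across libraries within ages. For the 10 most abundant members, log2(CPM + 1) was expressed as the deviation from the age mean, and all 45 pairs were correlated over 37 libraries with permutation p-values adjusted over the pairs. An adjusted p under 0.05 was reached by 23 pairs with a positive and 7 with a negative Pearson's r, and by 21 and 4 pairs with Spearman's rho. The closest pair was miR-8114 and miR-3968 (r = 0.82, permutation p = 1e-05, the smallest that 100000 resamples can give, adjusted p = 4.5e-05, Spearman's rho = 0.79 with permutation p = 1e-05). Its r was 0.74 without the 2 libraries farthest from the median of miR-8114, and 0.88, 0.82 and 0.57 within 12, 13.5 and 16.5 months. The 5 libraries at 15 months were too few for a value. miR-3968 and miR-1843b-3p had r = 0.81 (permutation p = 1e-05, adjusted p = 4.5e-05, rho = 0.81 with permutation p = 1e-05), 0.76 without the 2 farthest libraries, and 0.84, 0.83 and 0.84 within these ages. The 7 negative pairs all held miR-1839-5p.

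These correlations went partly with the scaling. CPM values are divided by the scaling factor, and the deviations of 8 of the 10 members correlated with its log2 value at an adjusted permutation p under 0.05 by Pearson's r, 7 negatively and miR-1839-5p positively. By Spearman's rho these were 5, all negative. The p-values were adjusted over 20 correlations, which included those with the total count. For miR-8114 this r was -0.63 (permutation p = 6e-05, rho = -0.65 with permutation p = 3e-05, -0.49 without the 2 farthest libraries). When the total count alone was the scale, r was 0.74 for miR-8114 and miR-3968 and 0.66 for miR-3968 and miR-1843b-3p, but 0.40 in place of 0.81 for miR-1198-5p and miR-1843b-3p. Of the 7 negative pairs, 5 became positive on that scale, among them miR-1198-5p and miR-1839-5p (0.49 in place of -0.48). The relation of miR-1198-5p and miR-1839-5p also rested on few libraries, with r = -0.10 without the 2 farthest.

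**Figure D5:**
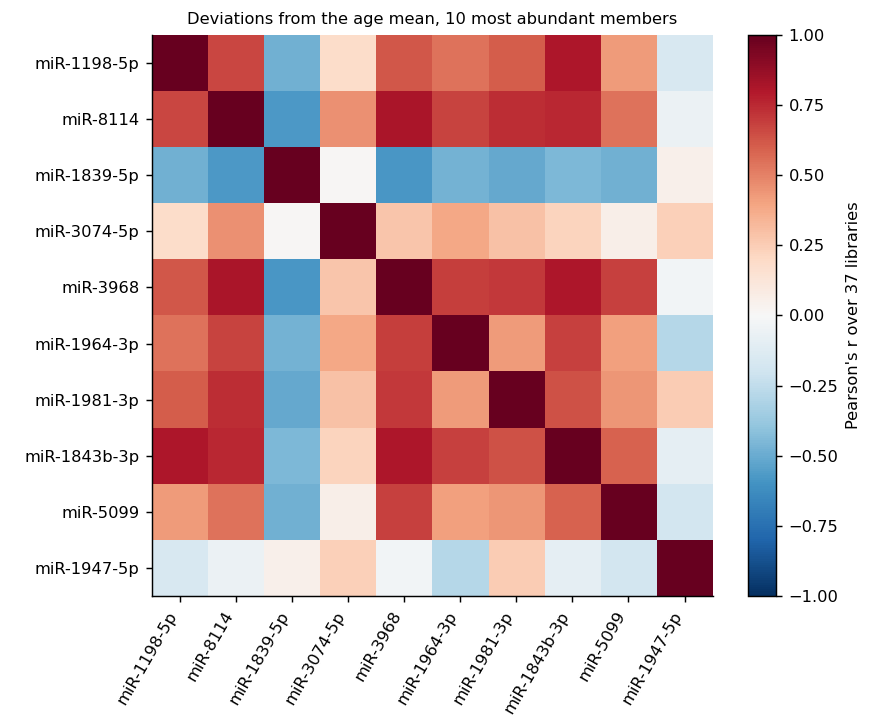
Each cell gives Pearson's r over 37 libraries between the deviations from the age mean of log2(CPM + 1) of 2 of the 10 most abundant members, from -1 (blue) to 1 (red). miR-8114, miR-3968 and miR-1843b-3p have r of 0.75 to 0.82 with each other, and the 7 negative pairs past the threshold lie in the row and column of miR-1839-5p.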

How the data were processed

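Small RNA was sequenced from 37 whole-blood libraries with the TruSeq Small RNA kit on a HiSeq2000. The authors trimmed adapters with cutadapt, checked reads with FastQC 0.11.5, and used miRDeep2 with mm10 and miRBase to count reads without mismatches, taking reads that start or end a few bases beyond the mature strand. They deposited whole-number read counts, 2241 rows for 1915 microRNAs. The authors also deposited a normalized signal for 337 microRNAs, which was these counts times 1 factor per library for 100% of the member values; it served only as a check. Where a microRNA had several rows, its first row was taken. Samples were grouped by the age in the labels, 0 sample columns were left out, and the libraries were taken as separate samples, although the study bled its mice repeatedly, because the labels do not say which libraries share a mouse. The chi-square between 2 libraries of 1 age was at least 14.6 per degree of freedom, so no 2 libraries of 1 age were 1 library sequenced again. It cannot tell whether 2 libraries were made from the same blood sample. Between ages only identical counts were looked for, and 0 pairs of libraries had them.

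MicroRNAs with more than 1 read in at least 19 libraries (323) were tested with edgeR 4.0.16 in R 4.3.3, using library totals of 2619533 to 20268095, TMM factors of 0.327 to 2.03, the quasi-likelihood F-test over 3 coefficients of age and contrasts between ages, with Benjamini-Hochberg adjustment over all 323 and a threshold of 0.05. SEs of log2 fold changes were derived from the fold change and its F statistic. CPM are counts per 1000000 of the total times the TMM factor, so sums can pass 1000000. The factors had medians of 1.29, 1.04, 0.804 and 1.10 over the 4 ages. miR-486a-5p and miR-486b-5p each had a mean of 3969000 reads per library and the same fitted fold changes. Both are in the totals, which can therefore hold the same reads under both names. Alternatives were DESeq2 1.42.0, other scalings and filters, summed rows, 1 RUVs factor, the replicate number as a block, and leaving out each library. The fits were tested on simulated data. The members, lists and tests were chosen with earlier results of these data known. Named in full were the 10 members with the highest mean CPM, the 10 with the smallest p, miR-1198-5p and miR-3968; others were named by arm, detection limit, seed or sequence end. Tests of counts cannot tell PCR copies from molecules.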

Additional observations from a re-analysis of the deposited data

Results flagged for a closer look

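For the members named in full, 32 groups (the 9 libraries at 12 months and the 5 at 15 months) were examined for a library far from the rest with Dixon's test, and 1 passed the limit, where chance gives about 1 in 20. It was miR-3968 in replicate 6 at 12 months, with 45.7 CPM where the next library had 19.8. Its gap was 0.634 of the range of the 9 libraries, above the limit of 0.493.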

How the results depend on the processing

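The count of members with any age difference (17, where 104 of all 323 tested were called) became 3 with a filter of more than 100 reads. That filter kept 4 members, and 51 of all 87 tested were called. Without a filter the count was 8 members, where 75 of all 960 tested were called. The count was 22 members with DESeq2 and 23 with 1 RUVs factor, where 130 and 135 of all 323 were called. It was 12 with the total count only and 12 with the total outside miR-486, where 78 and 96 of all 323 were called. It was 11 to 19 with 1 library left out, the lowest without replicate 7 at 12 months, where 78 of all 323 were called. At 13.5 against 12 months, 13 members became 6 with the total count only, 8 with the total outside miR-486, 2 with the 100-read filter, 6 without a filter, and 6 to 14 with 1 library left out, the lowest again without replicate 7 at 12 months. Over all tested, 70 of 323 became 30 and 62 of 323, 38 of 87 and 41 of 960 in the same order. Without replicate 7 at 12 months, 48 of all 323 were called. At 15 against 12 months, 0 became 2 with 1 RUVs factor, where 17 of all 323 were called in place of 1. At 16.5 against 12 months, 6 became 3 with the total count only, 1 with the 100-read filter, 2 without a filter, and 1 to 9 with 1 library left out, the lowest without replicate 4 at 12 months. Over all tested, 46 of 323 became 34 of 323, 17 of 87 and 21 of 960 in the same order. Without replicate 4 at 12 months, 34 of all 323 were called. At 15 against 13.5 months, 3 became 5 with DESeq2, 1 with the 100-read filter, 1 without a filter, 8 with 1 RUVs factor, and 1 to 6 with 1 library left out. Over all tested, 32 of 323 became 51 of 323, 34 of 87, 18 of 960 and 59 of 323 under these 4 settings in order. At 16.5 against 15 months, 0 became 1 with DESeq2, 2 with 1 RUVs factor, and 0 or 1 with 1 library left out. Of all 323 tested, 10 were called with DESeq2 and 12 with 1 RUVs factor, in place of 1. The cause of these moves was not tested, except that the filters changed which microRNAs were tested.

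With the total count only, the median log2 fold change of all tested against 12 months was -0.31, -0.72 and -0.37 at the later ages in order, in place of -0.04, -0.07 and -0.03. The total outside miR-486 gave -0.23 at 13.5 months.

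The direction of 3 uncalled members turned. For miR-1839-5p this was with adjusted p = 0.968 and 0.907 from edgeR without replicates 1 and 7 at 12 months, within 0.786 to 0.998 over all omissions. For miR-1981-3p it was with 0.995, 0.459, 0.847, 0.999 and 0.825 from edgeR with factors over 100 reads, the total count, the total outside miR-486, the 10-library filter and 1 RUVs factor, and in 3 omissions of 1 library, where all omissions gave 0.790 to 0.9996. For miR-1843b-3p it was with 0.989 and 0.146 from edgeR with the total count and 1 RUVs factor.

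The replicate numbers were not shown to pair the libraries. The deviations of 44 same-number pairs had a mean correlation of -0.04 (-0.67 to 0.63) over microRNAs, against 0.01 for other pairs. With the replicate block 15 members had an age difference in place of 17, all 15 among the 17. The block left 11, 0, 5, 4 and 0 calls in the single comparisons, in the order above. Of all 323 tested, the block called 109 for any age difference, and 84, 1, 47, 40 and 2 in the single comparisons. Of the 91 tested members, 33 had a mean under 5 reads.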
